A study of Mus musculus with 12 samples.

Results

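CHIR99021-treated BCR-negative lymphoma cells were compared with untreated BCR-positive lymphoma cells, 3 arrays against 3 of the 12 in the series. The B cell receptor (BCR) is the antigen receptor of B cells, built from immunoglobulin heavy and light chains, and CHIR99021 is a small-molecule inhibitor of the kinase GSK3. Arrays were chosen by title, as BCR-negative and CHIR99021 treated against BCR-positive and untreated, and were matched by the tumour number 2567, 2646 or 2676. Every group came from primary cultures of B lymphoma cells of l-MYC;B1-8f mice (strain C57BL/6J x BALB/c), in which a transgene supplies MYC and the gene of the B1-8 heavy chain is open to deletion by Cre. All cultures received TAT-Cre, a Cre protein that enters cells, and the cells were sorted by flow cytometry after 4 days of mixed growth of receptor-bearing and receptor-less cells. The treated cells grew in CHIR99021, at a dose that the labels do not give. 2 further groups with 3 arrays each, untreated BCR-negative cells from such mixtures and BCR-independent cells (1 clone per tumour, kept without the receptor in long culture), entered the model to estimate the spread and are given beside the comparison.

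The analysed samples include 0 arrays of CHIR99021-treated BCR-positive cells, so the 2 groups differ both in the receptor and in the inhibitor, and these cannot be told apart within the comparison. A further difference is that the untreated BCR-positive arrays of tumours 2646 and 2676 have titles ending in (2), which the labels do not explain, whereas the treated arrays have none. Only tumour 2567 therefore compares arrays of like title. Each tumour gave 1 array per group. With the tumour as a block, the p-values rest on how differences between groups vary across the 3 tumours. That spread was estimated from all 12 arrays, not only from those compared.

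The B cell receptor signals through kinases such as Syk and Btk to PI3K and AKT, and AKT holds back both GSK3 and the FOXO transcription factors. GSK3 phosphorylates many substrates, among them MYC and beta-catenin, and marks them for breakdown. FOXO factors, when active, switch on genes that restrain growth, and the MXD proteins compete with MYC for its partner MAX at the DNA motif called the E-box.

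**Figure D1:**
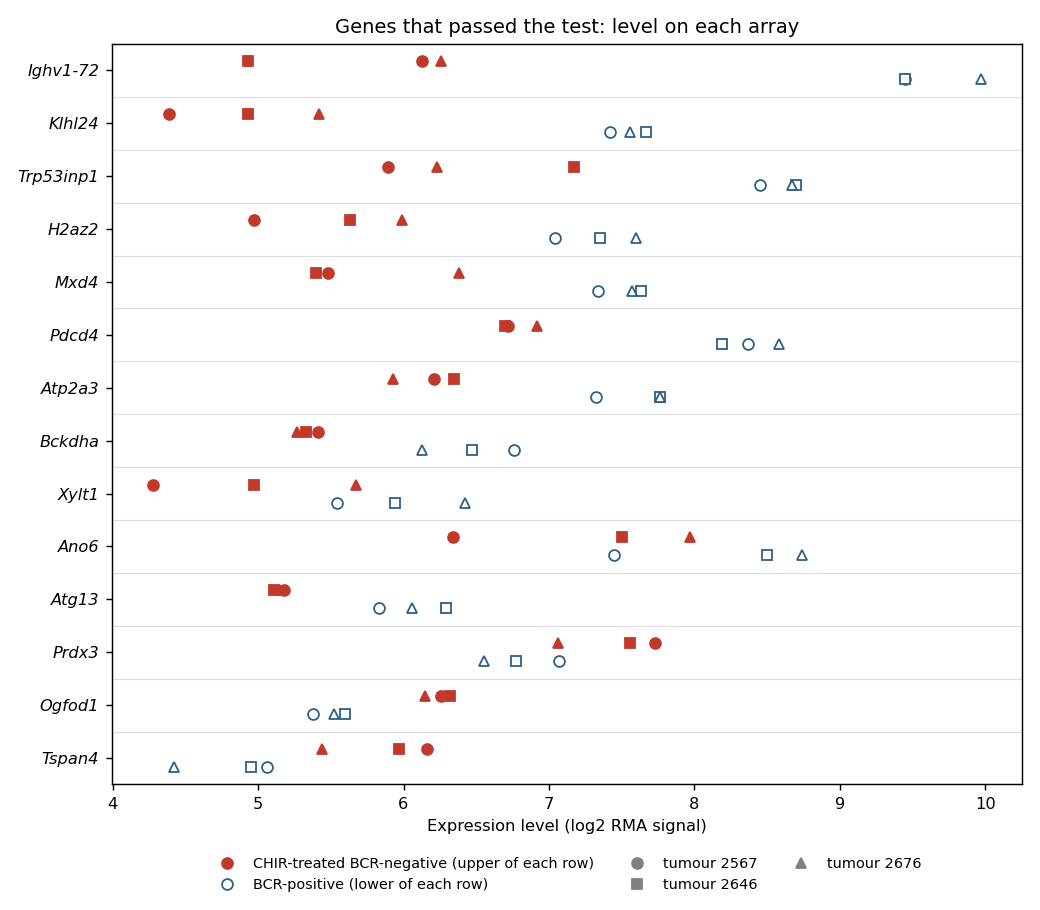
Log2 RMA signal (horizontal axis) of the 14 genes that passed the test, on the 3 CHIR99021-treated BCR-negative arrays (filled, upper in each row) and the 3 BCR-positive arrays (open, lower in each row), with 1 symbol per tumour. The 2 groups do not overlap for 11 of the 14 genes. The widest gap is that of Ighv1-72.

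11 genes fell and 3 genes rose in treated BCR-negative cells relative to BCR-positive cells. The fall was led by Ighv1-72, the segment from which the B1-8 variable region derives, followed by Klhl24, Trp53inp1, H2az2, Mxd4 and Pdcd4. The rises were smaller, in Tspan4, Ogfod1 and Prdx3. These 14 genes are 0.0744% of 18820 genes (0.0584% lower and 0.0159% higher), called at a limma adjusted p under 0.05 over all 35556 probe sets. Among the probe sets 22 passed (0.0619%), of which 14 had 1 gene, 4 had several and 4 had none. A fall or rise of at least 2-fold was reached by 8 of the 11 and 1 of the 3. All 14 changed in the same direction in each of the 3 tumours. Groups that do not overlap are common here, at 10.5% of all genes (6.3% with the treated arrays higher and 4.16% with them lower), as are genes with an unadjusted p under 0.05, which numbered 2213 (11.8%), with 941 expected. The calls rest on few arrays: 0 genes passed when any 1 tumour was left out or when only the 6 arrays compared were fitted, and 2 genes passed once the title mark entered the model, of which Ogfod1 is 1 of the 14. In tumour 2567 alone, with arrays of like title, the 11 lower genes differed by -3.32 (Ighv1-72) to -0.65 (Atg13) and the 3 higher genes by 0.66 (Prdx3) to 1.10 (Tspan4).

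Ighv1-72 checks the sort. It read 6.13, 4.93 and 6.26 (log2, tumours 2567, 2646 and 2676) in treated BCR-negative cells, against 9.45, 9.45 and 9.97 in BCR-positive cells. The groups stand far apart in every tumour. The difference was -3.85 (SE 0.32, limma adjusted p = 0.0141), a signal 14.4-fold lower. Untreated BCR-negative cells averaged 6.44 and BCR-independent cells 4.04. Treated cells differed from the untreated BCR-negative cells by -0.67 (limma adjusted p = 0.499) and from the clones by 1.73 (limma adjusted p = 0.131), neither past the threshold. Even so, every treated array read above every clone, which read 4.20, 4.21 and 3.72, so treated cells kept more of this signal than the clones. Heavy chain variable segments have near-identical copies, which may share in this signal. Of 2 probe sets of Ighm, the constant region of IgM, the brighter read 3.76 in treated and 4.09 in BCR-positive cells on average, near the array medians of 3.32 to 3.44. The other read 3.42 and 3.45, a change of -0.02 (limma adjusted p = 0.974 over all probe sets).

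Klhl24, a Kelch-like adaptor of a ubiquitin ligase and a member of the FOXO list used here, read 4.39, 4.93 and 5.42 in treated BCR-negative cells, against 7.42, 7.67 and 7.56 in BCR-positive cells. The treated arrays were all lower, by -2.63 (SE 0.26, limma adjusted p = 0.0163), which is 6.21-fold. Trp53inp1, a p53-inducible nuclear protein with roles in cell death and autophagy, read 5.89, 7.17 and 6.23 in treated cells, against 8.45, 8.70 and 8.67 in BCR-positive cells. Treated cells of tumour 2646 kept the most signal, and the groups stayed apart. The difference was -2.18 (SE 0.27, limma adjusted p = 0.0425). H2az2, a histone H2A variant, read 4.97, 5.63 and 5.99 in treated cells, against 7.04, 7.35 and 7.60 in BCR-positive cells. Its fall of similar size in each tumour averaged -1.80 (SE 0.16, limma adjusted p = 0.0141).

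Mxd4, a MAX partner that opposes MYC at E-boxes, read 5.48, 5.40 and 6.38 in treated BCR-negative cells, against 7.34, 7.63 and 7.57 in BCR-positive cells. The groups do not overlap, and the change was -1.76 (SE 0.20, limma adjusted p = 0.0319). Pdcd4, an inhibitor of the translation initiation helicase eIF4A, read 6.72, 6.70 and 6.92 in treated cells, against 8.37, 8.19 and 8.58 in BCR-positive cells. The 3 treated arrays lay close together, and the change was -1.60 (SE 0.14, limma adjusted p = 0.0141). Myc itself, with a mouse probe set that may or may not read the transgene, averaged 3.15 in treated and 3.23 in BCR-positive cells, near the array medians.

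The other 5 genes that fell were of varied function. Atp2a3, a calcium pump of the endoplasmic reticulum, read 6.21, 6.35 and 5.93 in treated BCR-negative cells, against 7.32, 7.76 and 7.76 in BCR-positive cells, a change of -1.45 (SE 0.16, limma adjusted p = 0.0271). Bckdha, a subunit of the enzyme that breaks down branched-chain amino acids, read 5.41, 5.33 and 5.27 in treated cells, against 6.76, 6.47 and 6.13 in BCR-positive cells, a change of -1.12 (SE 0.14, limma adjusted p = 0.0413). The groups of both genes stand apart. Atg13, a subunit of the ULK1 kinase complex that starts autophagy, read 5.18, 5.11 and 5.15 in treated cells, against 5.83, 6.29 and 6.06 in BCR-positive cells, and changed by -0.91 (SE 0.10, limma adjusted p = 0.0319). Xylt1, which starts glycosaminoglycan chains, and Ano6, a phospholipid scramblase, fell by 0.99 and 0.96 on the log2 scale (limma adjusted p = 0.0425 and 0.0271), with each treated array below the BCR-positive array of its own tumour but the groups overlapping. A second probe set of Ano6, near the array medians, differed by -0.13 (limma adjusted p = 0.706).

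Tspan4, a tetraspanin membrane protein, read 6.16, 5.97 and 5.44 in treated BCR-negative cells, against 5.06, 4.95 and 4.42 in BCR-positive cells. It rose by 1.05 (SE 0.09, limma adjusted p = 0.0141), a 2.07-fold increase present in every tumour. Ogfod1, an oxygenase that modifies a ribosomal protein, read 6.26, 6.32 and 6.15 in treated cells, against 5.38, 5.60 and 5.52 in BCR-positive cells, and rose by 0.74 (SE 0.07, limma adjusted p = 0.0163). Prdx3, the mitochondrial peroxiredoxin that removes peroxides, read 7.73, 7.56 and 7.06 in treated cells, against 7.07, 6.77 and 6.55 in BCR-positive cells. Its rise of 0.65 (SE 0.08, limma adjusted p = 0.0425) came with overlapping groups, since the treated array of tumour 2676 lay just below the BCR-positive array of tumour 2567.

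**Figure D2:**
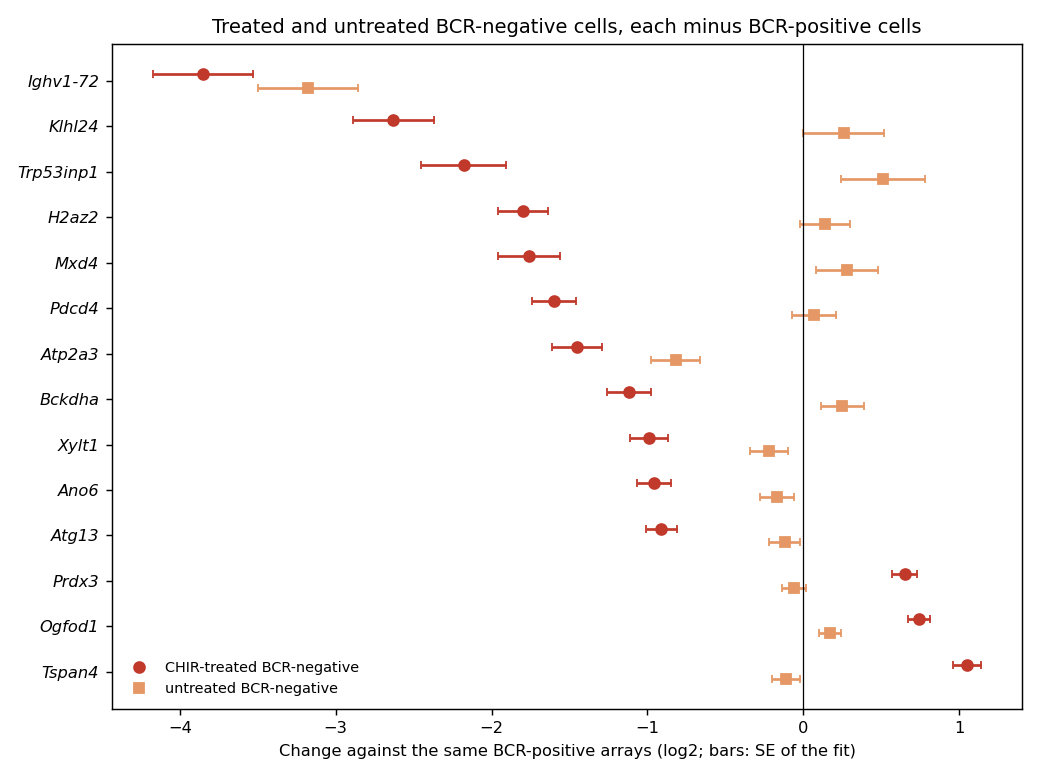
Change in log2 signal (horizontal axis, with the SE of the fit) of the 14 genes in CHIR99021-treated (circles) and untreated (squares) BCR-negative cells, each against the same 3 BCR-positive arrays. For Klhl24 the changes were -2.63 and 0.26, and for Ighv1-72 they were -3.85 and -3.18.

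For 12 of the 14 genes untreated BCR-negative cells differed from BCR-positive cells by -0.22 to 0.51, the exceptions being Ighv1-72 (-3.18) and Atp2a3 (-0.82). The direct test of treated against untreated BCR-negative cells, which is the test of the difference between their changes against the same BCR-positive arrays, passed for 9 of the 14 genes, beside 0.101% of all 18820. The 14 genes were chosen on the same 3 treated arrays that enter this test, so the count describes them and the share of all genes is no measure of chance for it. Klhl24 differed from untreated BCR-negative cells by -2.9 (limma adjusted p = 0.0186), while untreated BCR-negative cells differed from BCR-positive cells by 0.26. The same test gave -2.68 for Trp53inp1, -2.04 for Mxd4, -1.95 for H2az2, -1.67 for Pdcd4 and -1.36 for Bckdha, and 1.16 for Tspan4, 0.71 for Prdx3 and 0.57 for Ogfod1. It was not passed by Ighv1-72, Atp2a3 (-0.63, limma adjusted p = 0.168), Xylt1 (-0.77, 0.0746), Ano6 (-0.79, 0.0512) or Atg13 (-0.79, 0.0512). Between untreated BCR-negative and BCR-positive cells 0 of the 14 passed, and 0 of 18820 genes in all, and between treated cells and BCR-independent cells 0 of the 14 passed, with 1 gene (Mgat4c, 0.00531%) passing of all. These counts of 0 in limma do not show that the cells were alike, since Klhl24 differed between treated and BCR-independent cells by -2.39 (limma adjusted p = 0.0578), and they were higher when fewer genes were tested, as given next.

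**Figure D3:**
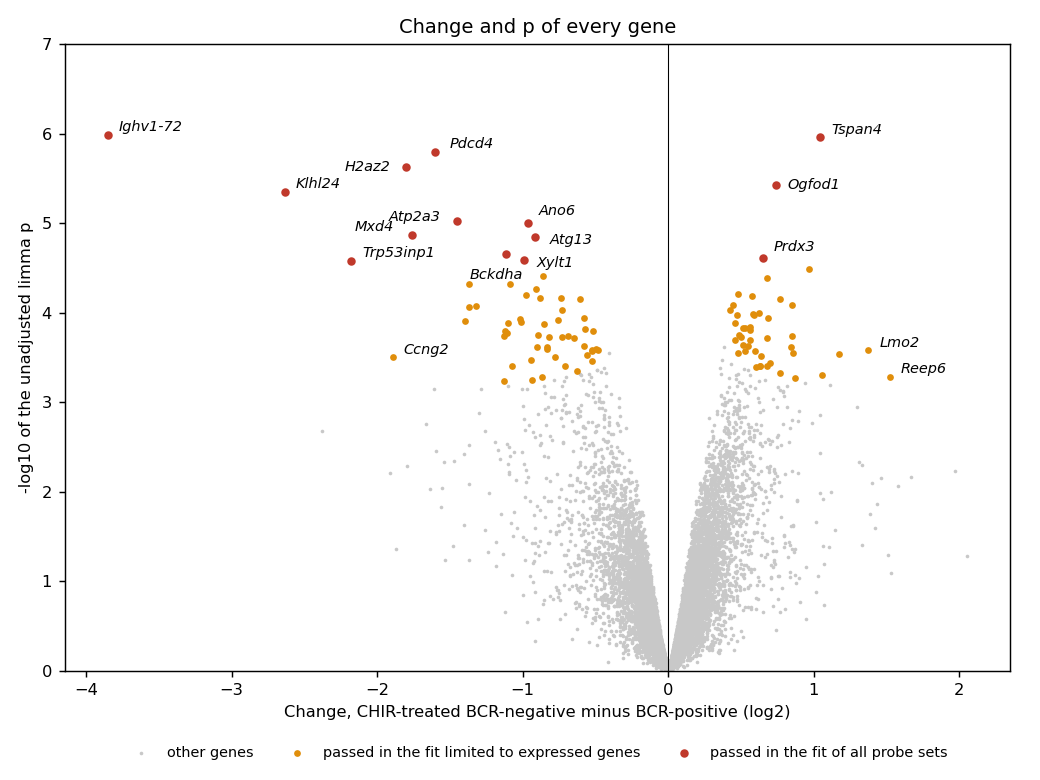
Change in log2 signal (horizontal axis, CHIR99021-treated BCR-negative minus BCR-positive) and -log10 of the unadjusted limma p (vertical axis) of 18820 genes. Red points are the 14 genes that passed in the fit of all probe sets and orange points those added among the 104 that passed when the fit was limited to expressed genes.

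More genes passed when the fit was limited to 12961 expressed genes, 1 probe set each, above the 40th percentile of signal on at least 3 arrays. This setting, which adjusts for fewer tests, called 104 genes (0.802%), 46 higher (0.355%) and 58 lower (0.447%), including all of the 14. Of these, 27 changed at least 2-fold, 5 higher and 22 lower, 77 had groups that do not overlap, and all 104 had the same direction in 3 tumours. The planned filter at the same percentile, which kept every probe set above it, called 21 genes, and no setting called more than 104. The fit of expressed genes was chosen after seeing the data and was not rerun without a tumour or with the title mark. Against BCR-independent cells 9 of the 14 genes passed in this setting (0.162% of all expressed genes), among them Klhl24 (-2.39, limma adjusted p = 0.0127), H2az2 (-1.56, 0.0127), Pdcd4 (-1.46, 0.0119) and Tspan4 (0.75, 0.0225). Against untreated BCR-negative cells 12 of the 14 passed (1.91% of all), all but Ighv1-72 and Atp2a3, and between untreated BCR-negative and BCR-positive cells 1 did, Ighv1-72 (-3.18, limma adjusted p = 0.0241; 0.00772% of all). The treated arrays are shared by the first and second of these comparisons with the one that chose the genes, and the BCR-positive arrays by the third. Apart from the 14 genes already described, no gene named from here on passed in the fit of all probe sets. Some of these genes were taken by rank in their list or as check genes, both set with earlier results known. Others were taken by size of change in this setting or by hand, after their values were seen. Their adjusted p is that of the expressed genes unless stated.

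**Figure D4:**
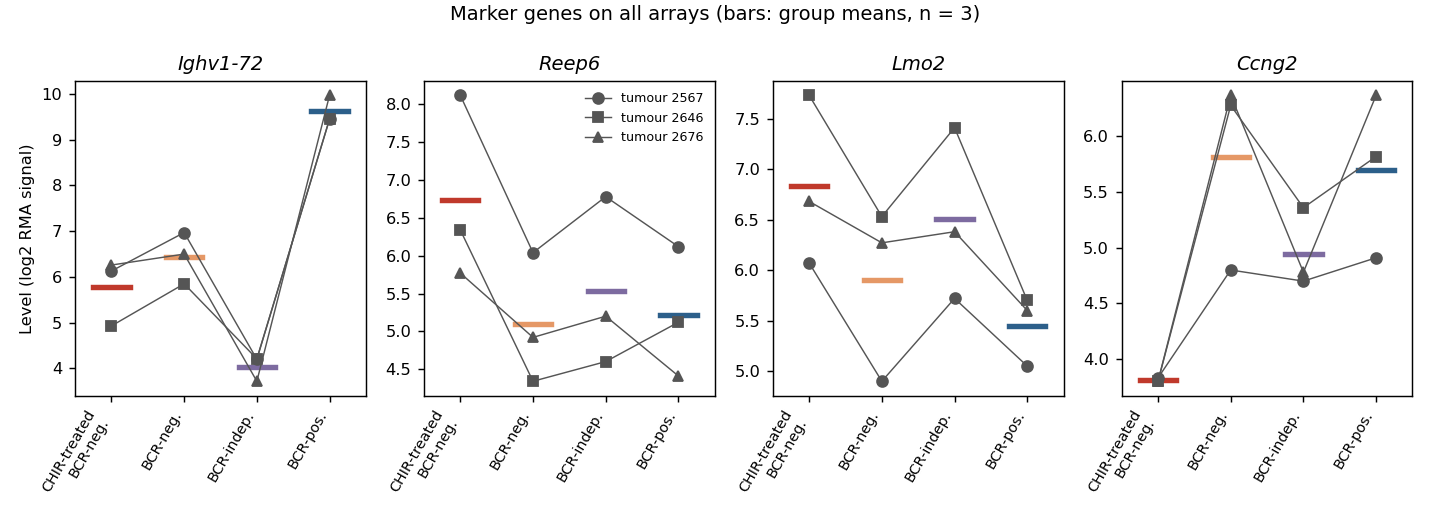
Log2 RMA signal (vertical axis) of Ighv1-72, Reep6, Lmo2 and Ccng2 in CHIR99021-treated BCR-negative, untreated BCR-negative, BCR-independent and BCR-positive cells, with lines joining the arrays of a tumour and bars at the group means (n = 3). Ccng2 reads between 3.80 and 3.83 on the 3 treated arrays, below every BCR-positive array.

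Reep6, Lmo2 and Ccng2, set as markers of this comparison with earlier results known, were among them. Reep6, a protein that shapes the endoplasmic reticulum membrane, read 8.12, 6.34 and 5.77 in treated BCR-negative cells, against 6.12, 5.12 and 4.41 in BCR-positive cells. It was higher in each tumour by 1.52 on average (SE 0.28, limma adjusted p = 0.0466), with overlapping groups because tumour 2567 was high in both. Lmo2, a LIM-domain adaptor of transcription factor complexes in blood cells, read 6.07, 7.73 and 6.68 in treated cells, against 5.05, 5.70 and 5.60 in BCR-positive cells, a difference of 1.38 (SE 0.23, limma adjusted p = 0.0376). The FOXO target Ccng2, a cyclin associated with cell cycle arrest, read 3.83, 3.80 and 3.80 in treated cells, against 4.91, 5.82 and 6.37 in BCR-positive cells. The treated arrays lay not far above the array medians, and the difference was -1.89 (SE 0.33, limma adjusted p = 0.0376). In the fit of all probe sets the adjusted p was 0.11 for Reep6, 0.0875 for Lmo2 and 0.0954 for Ccng2.

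From the 46 higher genes of this setting, 6 that act in the endoplasmic reticulum were picked after their values were seen. Sec61a1, the channel through which new proteins enter it, read 8.60, 8.58 and 8.24 in treated BCR-negative cells, against 7.98, 8.02 and 7.92 in BCR-positive cells, a difference of 0.50 (limma adjusted p = 0.0429). Ssr2, a partner of that channel, was higher by 0.69, Rpn1, a subunit of the N-glycan transferase, by 0.46, Surf4, a cargo receptor, by 0.51, and Emc4 and Emc7, subunits of the membrane insertase EMC, by 0.49 and 0.59. The groups of these 6 genes do not overlap, except those of Ssr2, against 6.3% of all genes with the treated arrays higher and apart. Since 77 of the 104 genes that passed had no overlap, this adds no support. The list of the unfolded protein response and chaperones of this organelle had 11 of 17 measured members higher and 6 lower, 0 called in either fit, and a median of 0.159 (0.221, -0.0542 and 0.111 by tumour, and -0.0212 without tumour 2567). Other genes higher in treated cells were Car12, a carbonic anhydrase (1.17), Lrp8, a lipoprotein receptor (1.06), Mfng, a Notch-modifying glycosyltransferase (0.97), Abcc1, a drug and glutathione exporter (0.85), Lyrm4, a helper of iron-sulphur cluster assembly (0.77), and Flvcr1, a haem and choline transporter (0.70).

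Among the lower genes were further components of autophagy, the pathway that delivers cell content to lysosomes. Wdr45, which binds autophagosome membranes, read 5.29, 5.33 and 5.36 in treated BCR-negative cells, against 6.04, 6.35 and 6.24 in BCR-positive cells, a difference of -0.88 (limma adjusted p = 0.0271). Rb1cc1, a partner of Atg13 in the ULK1 complex, differed by -0.69, and the cargo receptors Nbr1 and Tax1bp1 differed by -0.87 and -0.75. None of these 4 genes had overlapping groups, against 4.16% of all genes with the treated arrays lower and apart. They were picked from genes that passed on the same arrays, 77 of 104 without overlap, so this adds no support. They are not members of the autophagy and lysosome list used here, which had 12 of its 22 measured members higher and 10 lower, with a median of 0.0159. Akap12, a scaffold of protein kinase A (-1.40), Fbxl20, a ubiquitin ligase subunit (-1.37), Fcrla, an Fc receptor-like protein of B cells (-1.32), Cdk19, a kinase of the Mediator complex (-1.13), and Il2ra, a chain of the interleukin 2 receptor (-1.10), were lower as well. So were Ypel2 (-1.37) and Ypel3 (-1.09), of 1 family. Prkca, protein kinase C alpha, read 5.15, 5.51 and 5.58 in treated cells, against 6.21, 6.43 and 7.00 in BCR-positive cells, a difference of -1.13 (limma adjusted p = 0.0356). Untreated BCR-negative cells were lower too for Prkca, by -0.77, and treated against untreated BCR-negative cells differed by -0.35 (limma adjusted p = 0.367).

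**Figure D5:**
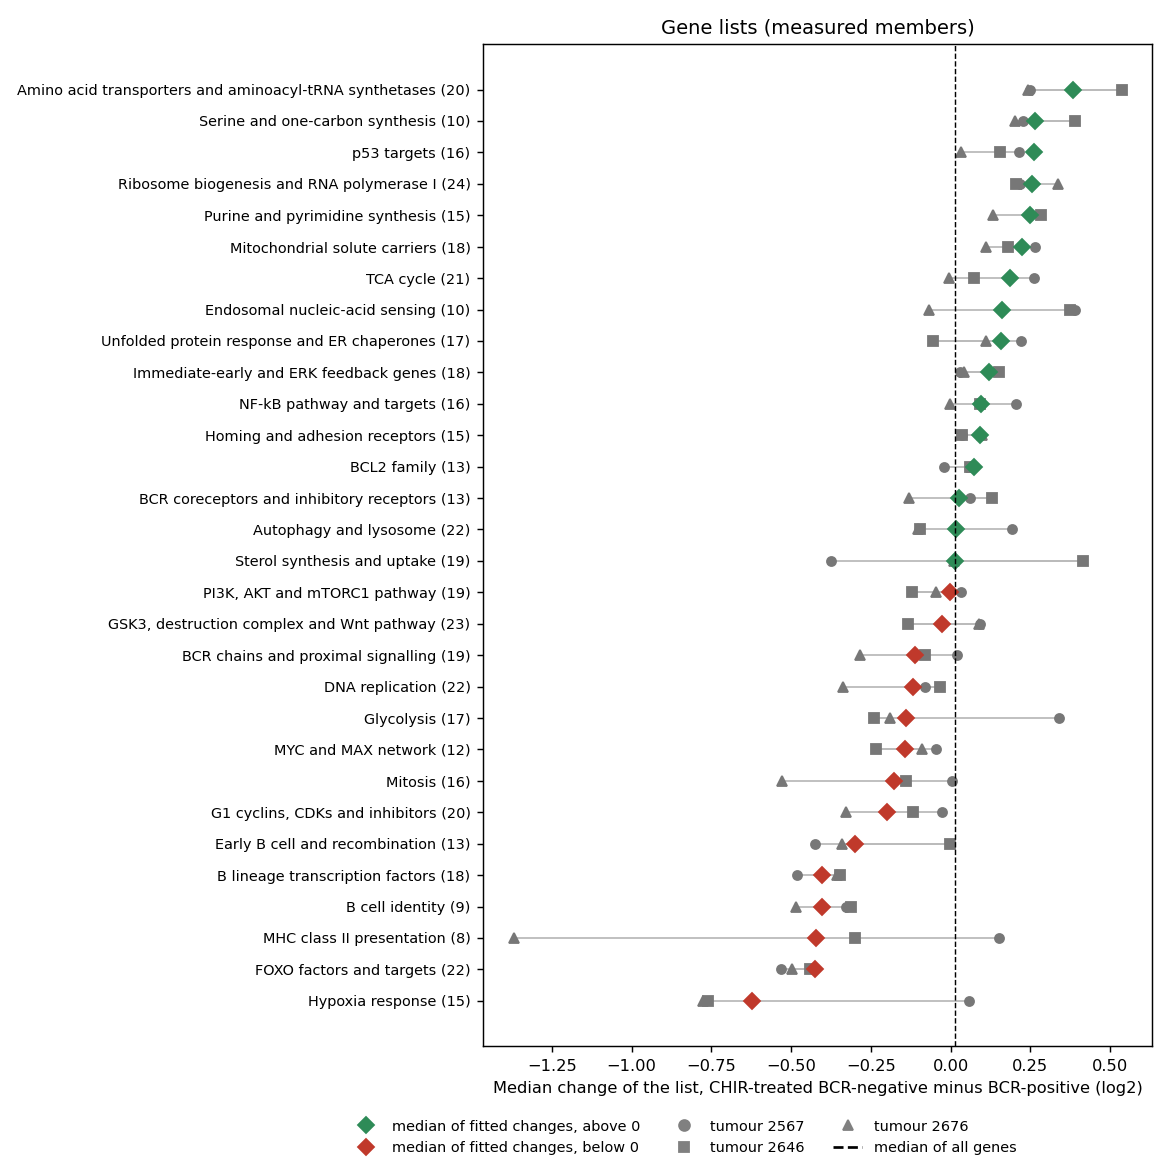
Median change in log2 signal (horizontal axis, CHIR99021-treated BCR-negative minus BCR-positive) of 30 pathway lists, with the number of measured members in brackets, as diamonds, and the median in each tumour as grey symbols. The dashed line marks the median of all genes, at 0.0122. Medians run from -0.624 for the hypoxia response to 0.383 for amino acid transporters and aminoacyl-tRNA synthetases.

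The 30 pathway lists, chosen with earlier results of these data known, had medians from -0.624 to 0.383 beside 0.0122 for all genes. 8 lists had medians above 0 in all 3 tumours, 7 had them below 0 in all 3, and 15 had both signs. Over all probe sets 3 list members were called, Klhl24, Trp53inp1 and Mxd4, and each of the other lists, 6 marker lists included, had 0 called members. The share of members whose groups did not overlap ran from 0% (MHC class II among them) to 38.9% (B lineage transcription factors), against 10.5% of all genes. The list medians and these shares are descriptions and were not tested.

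FOXO factors and targets were mostly lower in treated BCR-negative cells, 19 of 22 measured members against 8681 of 18820 genes. Their median was -0.424, with -0.532, -0.442 and -0.496 in the 3 tumours. Over all probe sets 1 member, Klhl24, passed, and among the expressed genes 2 members passed, both lower. The groups did not overlap for 6 of 22 (27.3%), all lower, against 4.16% of all genes. Cdkn1b, the CDK inhibitor p27, read 6.00, 6.45 and 6.33 in treated cells, against 6.54, 7.73 and 7.54 in BCR-positive cells, a difference of -1.01 (limma adjusted p = 0.0937). Foxo3, one of the factors, differed by -0.40, whereas Foxo1 differed by -0.25 and Bcl6 by 0.23, with all 3 short of the threshold. In untreated BCR-negative cells the list's median was 0.221 against the same BCR-positive arrays.

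The MAX network and the p53 list each had 1 member that passed over all probe sets, in both cases with a fall. Beside Mxd4, the MYC antagonists Mxi1 (-0.62) and Mxd1 (-0.46) were lower without passing, and Max, the shared partner, differed by 0.00. 10 of 12 members were lower, with a median of -0.142 that was -0.00676 without tumour 2646 and -0.261 with the filter at the 60th percentile of signal. Of 16 p53 targets, 10 were higher and 6 lower, with a median of 0.26 (0.139 without tumour 2646), so Trp53inp1 ran against most of its list. The groups did not overlap for 25% of them, 1 higher and 3 lower, against 10.5% of all genes. Cdkn1a, the CDK inhibitor p21, differed by 1.01 (limma adjusted p = 0.453), and the antiproliferative gene Btg2 by -0.73 (limma adjusted p = 0.0529).

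Genes that define B cells were mostly lower in treated BCR-negative cells. Of 9 measured B cell identity genes 8 were lower, with a median of -0.402 (-0.329, -0.313 and -0.484 by tumour, and -0.253 in the fit without tumour 2676), and of 18 B lineage transcription factors 13 were lower, with a median of -0.402. The groups did not overlap for 38.9% of the transcription factors, 2 higher and 5 lower, against 10.5% of all genes, 6.3% higher and 4.16% lower. Of these factors 1 passed as higher and 2 as lower among the expressed genes. The higher one was Lmo2, with the largest rise of the list at 1.38 (limma adjusted p = 0.0376). Tcf3, an E protein that B cell development requires, read 8.33, 8.25 and 8.79 in treated cells, against 8.92, 9.05 and 9.14 in BCR-positive cells, a difference of -0.58 (limma adjusted p = 0.0429). Pou2af1, a coactivator of octamer-binding factors and 1 of the B cell identity genes, differed by -0.48 (limma adjusted p = 0.0483). Myb, a regulator of early blood cells named from the list of early B cell and recombination genes, differed by -1.01 (limma adjusted p = 0.0325). The 2 lower calls given above count the 18 transcription factors only. Ebf1 read 6.83, 7.99 and 8.55 in treated cells, against 8.88, 8.92 and 9.34 in BCR-positive cells, and missed the threshold at -1.26 (limma adjusted p = 0.0759), as did Pax5 at -0.50 (limma adjusted p = 0.0831). The receptor signalling chains Cd79a and Cd79b differed by 0.10 and -0.40, and the kinase Syk by -0.54, none of them past the threshold.

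Genes of growth and biosynthesis were mostly higher, by small amounts. Of 20 measured amino acid transporters and aminoacyl-tRNA synthetases, 17 were higher, with a median of 0.383. The groups did not overlap for 6 of the 20 (30%), all higher, against 6.3% of all genes with the treated arrays higher and apart. Slc3a2, the heavy chain of the large neutral amino acid transporter, read 9.38, 9.66 and 9.32 in treated BCR-negative cells, against 8.83, 8.74 and 8.88 in BCR-positive cells, a difference of 0.64 (limma adjusted p = 0.0448). Its light chain Slc7a5 read 9.54, 9.59 and 9.76 in treated cells, against 9.05, 8.50 and 8.65 in BCR-positive cells, a difference of 0.90 that missed the threshold (limma adjusted p = 0.0708). Ribosome biogenesis genes were higher for 23 of 24 members, with a median of 0.256 and tumour medians of 0.218, 0.204 and 0.335. Purine and pyrimidine synthesis genes were higher for 15 of 15 members (median 0.25), and serine and one-carbon synthesis genes for 9 of 10 (median 0.264). The share of members without overlap was 16.7% for ribosome biogenesis, 6.67% for purine and pyrimidine synthesis and 0% for serine and one-carbon synthesis. Gart, an enzyme of purine synthesis, differed by 0.48 (limma adjusted p = 0.0612) and Phgdh, the first enzyme of serine synthesis, by 0.39 (limma adjusted p = 0.11). In the model that holds the title mark the medians were 0.205 for transporters and synthetases, 0.121 for ribosome biogenesis and 0.121 for serine and one-carbon synthesis. No list here but that of the transporters held a member past the threshold for expressed genes.

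Mitochondrial genes gave a mixed account. Of 18 mitochondrial solute carriers 14 were higher, with a median of 0.224 (0.138 without tumour 2567), and Slc25a33, a pyrimidine nucleotide carrier, read 5.60, 4.65 and 5.11 in treated BCR-negative cells, against 4.93, 4.29 and 4.34 in BCR-positive cells. Its difference of 0.60 passed in the expressed genes (limma adjusted p = 0.0432). Slc25a12, the aspartate-glutamate carrier, differed by 1.04 (limma adjusted p = 0.0664). TCA cycle genes were higher for 15 of 21 members, with a median of 0.185 (0.261, 0.0722 and -0.00575 by tumour, and 0.114 without tumour 2567). In that list Idh3a, a subunit of isocitrate dehydrogenase, differed by 0.52 (limma adjusted p = 0.0518) and Pcx, pyruvate carboxylase, by -0.78 (limma adjusted p = 0.0507).

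Genes of the cell cycle were slightly lower in treated BCR-negative cells. Mitosis genes were lower for 15 of 16 members (median -0.179) and DNA replication genes for 20 of 22 (median -0.118), with 0 members past the threshold in either fit. With the title mark as a term the median of the mitosis genes was 0.012, and without tumour 2676 the medians were -0.048 for mitosis and -0.0272 for DNA replication. Mki67, the proliferation antigen, read 9.23, 9.22 and 8.92 in treated cells, against 9.51, 9.83 and 9.67 in BCR-positive cells, a difference of -0.55 (limma adjusted p = 0.0949). Outside these lists the condensin subunits Ncapd2 (-0.65) and Ncapd3 (-0.56) and the cohesin subunit Rad21 (-0.50) were lower in the expressed genes (limma adjusted p = 0.0376, 0.0466 and 0.0466). Rb1, the retinoblastoma protein that restrains entry into S phase, differed by -0.93 (limma adjusted p = 0.0488), with overlapping groups. Ccnd1, cyclin D1, differed by 0.86 (limma adjusted p = 0.212).

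Some lists differed between tumours. Hypoxia response genes had a median of -0.624 in the fit, with 0.056 in tumour 2567 and -0.761 and -0.775 in tumours 2646 and 2676, and 14 of 15 members were lower. MHC class II genes had medians of 0.15, -0.299 and -1.37 in the same order. Cd74, a chaperone of MHC class II molecules, read 7.31, 7.20 and 7.68 in treated BCR-negative cells, against 7.43, 8.66 and 9.28 in BCR-positive cells, so the groups overlap and tumour 2567 hardly differs. That change of -1.06 did not pass (limma adjusted p = 0.181), and untreated BCR-negative cells, at 6.37 on average, read lower than the treated cells. Tumour 2567 is also the one with arrays of like title, and in the model that holds the title mark the medians were -0.103 for hypoxia genes and 0.0187 for MHC class II genes. Without tumour 2646 the hypoxia median was -0.351, and without tumour 2676 the MHC class II median was -0.0743.

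The list of GSK3, the destruction complex and the Wnt pathway, which holds the named target of CHIR99021, had 10 of 23 measured members higher and 13 lower, with a median of -0.0271. Gsk3b itself differed by -0.09 (limma adjusted p = 0.825) and Ctnnb1, beta-catenin, by -0.10 (limma adjusted p = 0.701). Axin2, a target of beta-catenin in many tissues, read 3.56, 3.63 and 3.79 in treated BCR-negative cells, against 3.44, 3.55 and 3.55 in BCR-positive cells. These levels lie near the array medians, and the difference of 0.15 did not pass (limma adjusted p = 0.446). The 1 member past the threshold for expressed genes was Btrc, a ubiquitin ligase subunit that recognises phosphorylated beta-catenin, at -0.73 (limma adjusted p = 0.0325). The PI3K, AKT and mTORC1 list had a median of -0.00338, and its member Mtor differed by -0.86 (limma adjusted p = 0.035) with overlapping groups. Of the BCL2 family, 7 of 13 were higher and 6 lower, with a median of 0.0724 and 0 members called.

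Of the markers of other cell types, those of T cells, myeloid cells and NK cells were mostly below the array medians in both groups. Of 9 T cell markers 8 lay below the array medians on every treated and every BCR-positive array, and their summed linear signal ran from 74.1 to 78.5 in treated BCR-negative cells and from 70.7 to 75.6 in BCR-positive cells. Of 12 myeloid markers 9 lay below on the treated arrays and 10 on the BCR-positive arrays, with sums of 116 to 134 and 111 to 162, and of 7 NK cell markers 5 and 6 did, with sums of 54.1 to 56.9 and 54 to 58.6. Plasma cell markers summed to 746 to 1200 in treated and 852 to 1590 in BCR-positive cells, stromal and endothelial markers to 115 to 187 and 148 to 217, and erythroid markers to 564 to 641 and 551 to 666, with 3 of 8, 3 of 9 and 2 of 4 markers below the array medians on every array of either group. Their part in the changes was not tested. B cell identity genes summed to 3110 to 4420 in treated and 3860 to 4990 in BCR-positive cells, with 1 of 9 below the array medians on every array, Ms4a1, the CD20 antigen. In sorted bulk cells, fewer cells of a kind and less RNA per cell cannot be told apart.

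Promoter sequences of the genes that changed were searched for 3 motifs on both strands, and those of Mxd4 and Tspan4, which passed in opposite directions, and of Btg1, an antiproliferative gene, are shown because each carries a match. The windows are the 250 bases before the transcription start in RefSeq (GRCm38.p6), written 5′ to 3′ on the strand of the gene, with the motif in capitals. The E-box CACGTG is read by MYC, MAX and MXD proteins, and GTAAACA, whose reverse complement is TGTTTAC, is a core bound by FOXO factors. The window of Mxd4 lies on the minus strand at chr5:34187711-34187960, that of Tspan4 on the plus strand at chr7:141476130-141476379, at 1 of its 2 start sites, and that of Btg1 on the plus strand at chr10:96616751-96617000.
Mxd4: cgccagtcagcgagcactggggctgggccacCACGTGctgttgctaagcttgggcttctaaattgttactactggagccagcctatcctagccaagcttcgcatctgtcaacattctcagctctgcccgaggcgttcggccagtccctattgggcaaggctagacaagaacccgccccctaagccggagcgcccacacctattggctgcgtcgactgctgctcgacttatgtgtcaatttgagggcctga
Tspan4: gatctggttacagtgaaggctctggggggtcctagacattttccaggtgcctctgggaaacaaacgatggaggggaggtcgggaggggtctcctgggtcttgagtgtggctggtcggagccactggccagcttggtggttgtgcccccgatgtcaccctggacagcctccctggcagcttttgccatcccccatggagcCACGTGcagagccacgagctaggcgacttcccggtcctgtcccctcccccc
Btg1: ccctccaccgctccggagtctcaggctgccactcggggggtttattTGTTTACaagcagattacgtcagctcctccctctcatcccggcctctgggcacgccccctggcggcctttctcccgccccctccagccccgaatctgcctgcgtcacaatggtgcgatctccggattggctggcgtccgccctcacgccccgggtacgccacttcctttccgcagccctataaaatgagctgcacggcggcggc

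The E-box of Mxd4 begins 219 bases before the start site and that of Tspan4 51 bases before it, and the FOXO core of Btg1 begins 204 bases before it. Btg1 read 6.43, 7.60 and 7.63 in treated BCR-negative cells, against 7.96, 8.30 and 8.63 in BCR-positive cells, and differed by -1.08 in the expressed genes (limma adjusted p = 0.0429). Among the 58 lower genes of that setting, 43 had a window, and 4 of these (9.3%) held the FOXO core, against 3.13% of 14749 measured genes with a window. Those 4 were Btg1, Rmnd5a, Rsrp1 and Smim14. Among the 46 higher genes, 34 had a window, of which 6 (17.6%) held the E-box, against 8.19% of measured genes, and 0 held the FOXO core. The E-box was in 2 of the 43 lower genes with a window (4.65%), Mxd4 included. The TCF and LEF motif CTTTGAT was in 0 windows of either set, against 3.3% of measured genes. Such a match describes the letters of these windows and was not tested for binding. Of the 14 genes that passed over all probe sets, 7 lower and 3 higher genes had a window. The FOXO core was in 0 of these, and the E-box in 1 lower and 1 higher gene. The windows of Ccng2 and Cdkn1b held none of the 3 motifs. Klhl24 and Trp53inp1 had no window in the table used.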

How the data were processed

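Gene expression was measured on 12 Affymetrix mouse whole-transcript arrays. The authors deposited log2 expression signals of 35556 probe sets, and the submitters' processing notes name RMA, run in Affymetrix Power Tools. This method corrects background, equalises the distributions of the arrays and summarises probes, which compresses differences of dim probe sets. Their versions and the annotation: not given in the sources used here. Array medians lay between 3.32 and 3.44. No detection calls were used. Precision is limited by how many arrays there are.

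Groups and tumour numbers came from the labels. The model, with terms for group and tumour, was fitted with limma 3.58.1 (R 4.3.3) on all 12 arrays and all probe sets (6 residual and 2.63 prior degrees of freedom), with Benjamini-Hochberg adjustment over all of them and calls at an adjusted p under 0.05. Each of 18820 genes was represented by its single-gene probe set of highest mean. Probe sets with several genes (1881) or none (12457) carry no name, and symbols were updated through a RefSeq table. Arrays were paired by tumour number. After removal of each group's mean, residuals of 1 tumour correlated between 0.241 and 0.632, and those of unlike tumours between -0.702 and 0.0648. The best match of each of 12 arrays (12 of 12) was from its own tumour. Removing the group mean by itself makes unlike tumours of the same group correlate negatively, so the negative values are partly built in. The genes named are up to 15 called each way, the called members of each list with the smallest p (6 at most, or 2 where none passed), and check genes. Gsk3a had no single-gene probe set. Members, lists and alternatives were chosen with earlier results of these data known, and further genes were named after their values were seen, among them all those described only from the expressed-gene fit. Pdk1 was taken out of the PI3K list because its symbol here names another gene. Of 601 list memberships 549 were measured. Alternatives were only the 6 arrays compared, no tumour block, filters at the 40th and 60th percentile, quantile normalization, cyclic loess, array weights, robust eBayes with a trend, the title mark as a term, a 1.5-fold threshold, mean probe sets, each tumour left out and, chosen after seeing the data, the fit of 12961 expressed genes. The fit was tested on simulated data.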

Additional observations from a re-analysis of the deposited data

How the results depend on the processing

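Under the alternatives run for single genes all 14 called genes kept their direction, and their changes moved by at most 1.25 times, but the number of calls depended on the setting. The fit of all probe sets and 12 arrays called 22 probe sets and 14 genes. Only the 6 arrays compared (2 residual degrees of freedom) gave 0 and 0, as did leaving out any 1 tumour (0 to 0 for both counts). No replicate block gave 11 and 6, with 5 of the 14 genes kept, among them Ighv1-72 (-3.85). Adding the title mark gave 6 and 2, with Ogfod1 kept, and with the mark the comparison rests in large part on tumour 2567. The filter at the 40th percentile gave 34 and 21, and that at the 60th percentile gave 60 and 39. Cyclic loess gave 46 and 28, and quantile normalization gave 34 and 22. The trend with robust eBayes gave 9 genes, averaging probe sets by gene 93 and the 12961 expressed genes 104. Ighv1-72 kept its size, but its limma adjusted p was 0.308 with only the 6 arrays (change -3.85) and 0.0988 with the mark (change -3.78). Without 1 tumour its change ran from -4.12 to -3.52, none of them past the threshold. The cause of these differences was not tested, except that fewer tests, fewer arrays or fewer degrees of freedom are part of several settings.

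8 of 129 named genes turned sign in at least 1 setting, none of them called, with changes between -0.35 and 0.88. Where the mark was modelled the change was -0.02 for Epor, 0.23 for Gsk3b, 0.06 for Ctnnb1 and 0.01 for Mgat4c, and Epor was -0.01 after cyclic loess. Leaving out 1 tumour in turn gave -0.15 to 0.02 for Klrk1, -0.17 to 0.03 for Ncr1, -0.04 to 0.05 for Epor, -0.03 to 1.37 for Egr1, -0.21 to 0 for Myc and -0.63 to 0.06 for Mgat4c. Among list medians alike in 3 tumours, 4 turned, to 0.0149 for G1 cyclins, CDKs and inhibitors with the mark, to -0.28 for myeloid markers with the filter at the 60th percentile, and, leaving out 1 tumour in turn, to a range of -0.033 to 0.241 for immediate-early and ERK feedback genes and of -0.0551 to 0.0625 for homing and adhesion receptors. Other medians moved by over 1.5 times: with the filter at the 60th percentile to -0.261 for the MAX network and -0.929 for MHC class II, with the mark to -0.2 for DNA replication, and leaving out 1 tumour in turn to ranges of -0.785 to -0.0743 for MHC class II, -0.325 to -0.048 for mitosis, -0.184 to -0.0272 for DNA replication and -0.214 to -0.00676 for the MAX network. Levels near the array medians, such as those of Axin2, Myc and Ighm, have no measured background beside them.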
